A study of Mus musculus with 12 samples.

Results

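The genes described here are 37 genes of mature oligodendrocytes and myelin, measured in spinal cord libraries of MFN2 and WT mice. The methods of the study give the tissue as lumbar cord. They were listed by name and matched by mouse symbol to the Ensembl genes counted in every library, of which there were 49548, with a GENCODE M21 symbol for 49289. All 37 were found, and all 37 were above 1 CPM (the count of a gene relative to the total of its library) in each of the 12 libraries. The 8 MFN2 libraries (labelled CMT2A) are from untreated MitoCharc1 mice at 30 days of age, on a B6;D2 background, of the line Tg(Eno2-MFN2*R94Q)L51Ugfm/J. These animals carry human MFN2 with the R94Q mutation under the Eno2 promoter, which is active mainly in neurons, and they represent a single transgenic line. The 4 WT libraries are from untreated mice of the same age, given as C57BL/6 in the labels. The methods of the study also speak of littermates, and if the WT mice were of the labelled strain, strain background and genotype cannot be told apart in any comparison of MFN2 with WT. Human MFN2 was not analysed here, so the genotype could not be checked from the transgene. Each library was taken as 1 mouse, since the labels give library numbers and no animal numbers, and p-values measure the spread between these libraries.

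Oligodendrocytes are the glial cells that wrap axons of the central nervous system in myelin, a stack of membrane that is rich in lipid and held together by a small number of abundant proteins. Mature cells express genes for these structural proteins together with the enzymes that make myelin galactolipids, the transcription factors SOX10 and MYRF that keep the program active, and the channels and receptors that link the cell to axons and astrocytes. The spinal cord is dense in white matter, so transcripts of these genes are abundant there. Several of the listed genes are also active in other cells, such as Il33 in astrocytes and Cd9 and Gsn in many cell types. In bulk tissue, fewer oligodendrocytes and less RNA of these genes per oligodendrocyte cannot be told apart.

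The libraries carry the numbers 41 to 47 and 72 to 76, called the first and the second run of numbers here. Libraries 41, 42 and 43 (MFN2) and 44, 45, 46 and 47 (WT) make up the first run, and libraries 72, 73, 74, 75 and 76 (all MFN2) the second. In the second run the genotype and the run of numbers therefore cannot be told apart. Total counts lay between 19359454 and 26738930 per library. Library 43 stood apart from the others, as the plot of summed gene lists shows. Its forebrain and Hox genes go against its description as lumbar cord. Its 11 forebrain genes summed to 4776 CPM, with Camk2a, a kinase of forebrain excitatory neurons, the most abundant at 1920 CPM, while the other 11 libraries lay between 112 and 209 CPM. Its 9 caudal Hox genes, which mark the level of the cord, summed to 50.4 CPM, against 299 to 364 CPM elsewhere. Its 11 neuronal genes summed to 4758 CPM, against 9759 to 14483 CPM. Of these 11 the neurofilament gene Nefm was at 17.1% of the WT mean, while Syt1, a sensor of synaptic vesicles, was at 790% and the nuclear marker Rbfox3 at 150.5%. Schwann cell genes, which mark nerve roots, summed to 412 CPM in library 43 and to 417 CPM in library 73, against 105 to 168 CPM in the other 10 libraries. Medians and most fold changes of the comparisons that hold library 43 are also given without it.

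**Figure D1:**
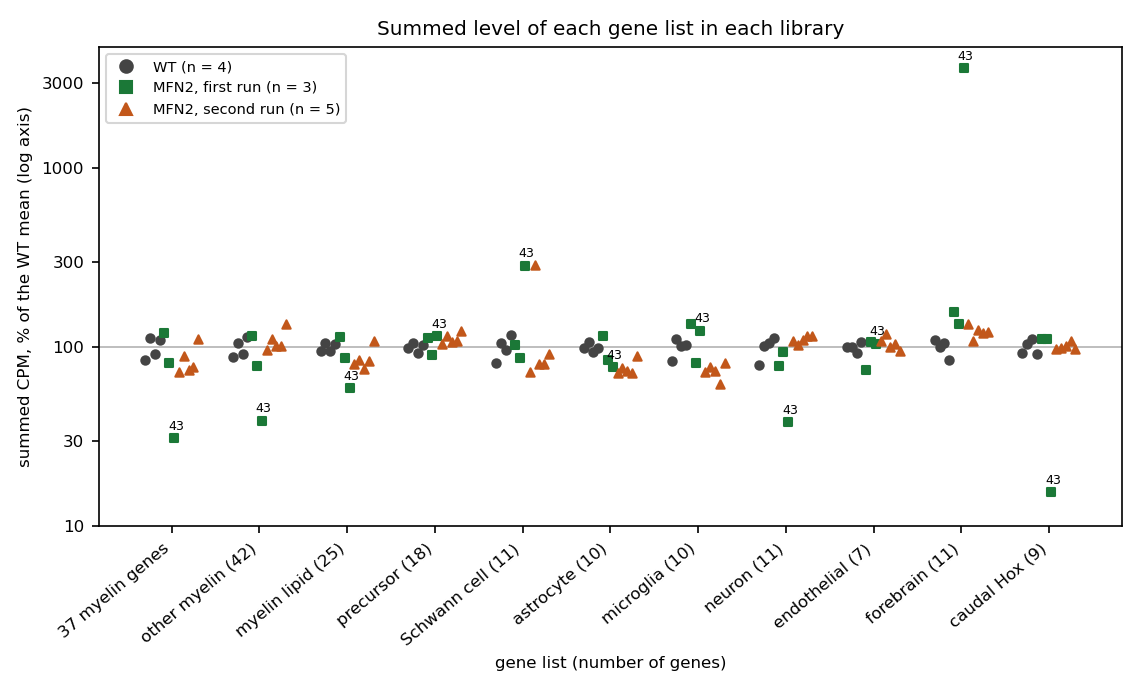
Summed CPM of each gene list in each library, as a percentage of the mean of the 4 WT libraries on a log axis, with a point for each library and library 43 labelled. The 37 myelin genes of library 43 lie at 31.2% of the WT mean and its forebrain genes at 3610%, while the second-run MFN2 libraries all lie below the WT libraries for the astrocyte and microglial lists.

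In WT cord the listed genes covered a wide range of levels. Divided by the length of their annotated exons, the level of Mbp, whose protein seals the cytoplasmic faces of the myelin membrane, was 1248 ± 182 RPKM (SD, n = 4), the highest of the 37. Trf, which encodes the iron carrier transferrin, was lowest at 4.76 ± 0.784 RPKM (SD, n = 4), so that the range spanned 262-fold. The Trf level is uncertain, because 63.5% of its exon bases are shared with the readthrough gene Gm20425 on the same strand, and the counting rule is not given in the sources used here. After Mbp came Mobp, another basic protein of compact myelin, at 459 ± 43.03 RPKM, and Mal, a proteolipid of membrane sorting, at 401 ± 33.1 RPKM (SD, n = 4 each). Cnp, an enzyme of the cytoplasm-filled channels of myelin, followed at 316 ± 36.0 RPKM and Cldn11, the claudin of its tight junctions, at 252 ± 22.6 RPKM (SD, n = 4 each). Of the 36 pairs of neighbours in the order of RPKM, 30 had overlapping ranges over the 4 WT libraries. The levels of Mbp, Mal, Cnp, Gsn, Fa2h and Aspa lay clear of the next gene below them at this length. With the longest transcript as the length some ranks changed, with Mag at 5 in place of 7 and Cldn11 at 7 in place of 5. Reads of Mbp made up 43.1% to 44.9% of all reads of the 37 genes in WT libraries.

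Divided in the same way, the enzymes ranged from Qdpr at 148.5 ± 32.7 RPKM (SD, n = 4), which regenerates the cofactor tetrahydrobiopterin, to Aspa at 7.75 ± 1.66 RPKM, which splits N-acetylaspartate. Between them lay Car2 (a carbonic anhydrase), Ugt8a (the enzyme that makes galactosylceramide), Fa2h (which hydroxylates its fatty acids) and Gal3st1 (which sulfates it). Among transcription factors Sox10 was at 42.2 ± 7.88 RPKM, Myrf at 28.4 ± 4.74 RPKM and Nkx6-2 at 26.8 ± 5.88 RPKM (SD, n = 4 each), where the range of Sox10 over WT libraries lay above those of Myrf and Nkx6-2, which overlapped. With the longest transcript as the length, the WT means of Sox10 and Myrf were nearer, at 46.3 and 42.9 RPKM. The connexin genes Gjb1 and Gjc3, which encode gap junction channels, were at 33.6 ± 6.04 and 33.2 ± 5.45 RPKM, with overlapping ranges. The receptor genes differed among themselves, with Lpar1 for lysophosphatidic acid at 36.0 ± 5.51 RPKM, S1pr5 for sphingosine 1-phosphate at 22.2 ± 4.6 RPKM and the semaphorin receptor Plxnb3 at 13.8 ± 1.85 RPKM (SD, n = 4 each). Over the 4 WT libraries the coefficient of variation of CPM had a median of 17.6% over the 37 genes, from 7.42% for Mog to 28.1% for Il33. The WT library numbered 44 was the lowest of the 4 for 29 of the 37 genes, where it was the lowest for 30.6% of all genes tested.

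Because SOX10 and MYRF act on many of these genes, their core motifs were looked for in the promoter windows of RefSeq (build GRCm38.p6, 250 bases before to 50 after each start). A window was given for 29 of the 37 genes, with 44 windows in all, since some genes have several starts. Mbp, Fa2h, Myrf, Sox10, Bcas1, Enpp2, Car2 and Trf had none there. The SOX core ACAAAG, on either strand, was in 14 of the 44 windows (31.8%), against 18.7% of all 32851 windows. The MYRF core, taken as CTGGCAC or CTGGTAC on either strand, was in 9 of the 44 (20.5%), against 7.10% of all windows. The TATA box TATAAA, on either strand, was in 4 of the 44 (9.09%), against 13.6%. The median GC content was 57.3% over the 44 windows and 52.7% over all windows, and its part in these shares was not tested. Windows of the same gene can overlap and share a match, and a match is a run of letters and not a measured binding site. By gene, 11 of 29 held the SOX core (37.9%, against 21.02% of all genes with a window) and 8 of 29 the MYRF core (27.6%, against 8.10%). Genes with several windows have more chances of a match.

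Mag, Cnp and Opalin are shown because each held both cores in a single window, and Mobp because it held 6 SOX cores, the most of any window here. Mag encodes an adhesion protein of the inner myelin membrane facing the axon and Opalin a transmembrane protein of oligodendrocytes. Gjb1 and Qdpr are shown as examples from the 8 genes with an FDR under 0.05 in the second-run MFN2 libraries described further on. Windows of the rest of the 8 are not printed, and some of them held a match. Sequences are on the strand of the gene, with the SOX, MYRF and TATA motifs in capitals.
Mag (chr7:30914814-30915113, minus strand): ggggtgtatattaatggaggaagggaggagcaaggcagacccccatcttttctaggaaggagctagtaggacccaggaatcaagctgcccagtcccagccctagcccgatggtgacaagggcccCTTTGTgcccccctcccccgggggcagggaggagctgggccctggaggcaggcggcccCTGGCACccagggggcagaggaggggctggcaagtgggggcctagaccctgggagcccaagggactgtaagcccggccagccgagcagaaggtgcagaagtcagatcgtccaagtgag
Cnp (chr11:100574689-100574988, plus strand): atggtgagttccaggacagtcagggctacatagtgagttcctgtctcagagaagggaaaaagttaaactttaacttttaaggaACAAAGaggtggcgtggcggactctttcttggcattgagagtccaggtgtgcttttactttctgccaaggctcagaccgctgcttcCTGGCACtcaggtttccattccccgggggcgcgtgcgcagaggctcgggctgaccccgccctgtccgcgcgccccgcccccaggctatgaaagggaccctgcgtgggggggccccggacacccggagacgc
Opalin (chr19:41077064-41077363, minus strand): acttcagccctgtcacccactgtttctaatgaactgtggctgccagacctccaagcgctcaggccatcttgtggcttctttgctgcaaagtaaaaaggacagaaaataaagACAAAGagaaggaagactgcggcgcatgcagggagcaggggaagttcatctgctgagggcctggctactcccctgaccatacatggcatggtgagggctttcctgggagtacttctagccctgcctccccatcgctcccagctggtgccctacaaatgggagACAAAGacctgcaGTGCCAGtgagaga
Mobp (chr9:120149492-120149791, plus strand): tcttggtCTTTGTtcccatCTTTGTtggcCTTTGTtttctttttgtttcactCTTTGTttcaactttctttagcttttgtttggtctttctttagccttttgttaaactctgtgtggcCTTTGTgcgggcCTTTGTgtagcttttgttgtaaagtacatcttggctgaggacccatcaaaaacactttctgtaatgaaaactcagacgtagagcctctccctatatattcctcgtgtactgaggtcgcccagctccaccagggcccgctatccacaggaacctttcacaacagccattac
Gjb1 (chrX:101383482-101383781, plus strand): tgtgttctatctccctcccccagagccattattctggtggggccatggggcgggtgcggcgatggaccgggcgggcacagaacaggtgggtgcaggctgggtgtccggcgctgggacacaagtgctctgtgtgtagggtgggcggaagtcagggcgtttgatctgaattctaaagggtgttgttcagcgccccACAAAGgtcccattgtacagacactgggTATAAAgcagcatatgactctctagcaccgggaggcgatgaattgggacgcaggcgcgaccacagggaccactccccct
Qdpr (chr5:45450180-45450479, minus strand): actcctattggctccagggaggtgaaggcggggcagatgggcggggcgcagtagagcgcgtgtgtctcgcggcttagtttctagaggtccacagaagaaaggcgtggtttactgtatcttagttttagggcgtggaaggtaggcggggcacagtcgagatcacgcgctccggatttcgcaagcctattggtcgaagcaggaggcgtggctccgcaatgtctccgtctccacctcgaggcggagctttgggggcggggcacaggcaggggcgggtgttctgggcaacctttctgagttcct
Counted from the start site as 0, the printed Mag window held a SOX core from -126 and a MYRF core from -68, and the Cnp window a SOX core from -167 and a MYRF core from -81. The Opalin window held SOX cores from -139 and 23 and a MYRF core from 36. The printed Gjb1 window held a SOX core from -57 and a TATA box from -29. It is 1 of 4 windows of Gjb1, of which another held a SOX core from -176 and the remaining ones no match. No match to these letters was in the Qdpr window. The remaining windows with a MYRF core belonged to Mag again (a window that overlaps the printed one), Mog, Hapln2, Lpar1, Tmem125 and S1pr5. S1pr5 had overlapping matches on both strands.

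The study asked whether the MFN2 transgene changes transcripts of the cord. Between the 8 MFN2 and the 4 WT libraries, 0 of the 37 myelin genes had an FDR of 0.05 or less (edgeR quasi-likelihood test, Benjamini-Hochberg adjustment over all 15942 genes tested), where 0% of all genes tested did. DESeq2 also called 0 of the 37, where it called 200 of all genes tested (121 higher and 79 lower). With limma-voom 0 of the 37 and 0 of all genes tested were called. The log2 fold change was below 0 for 35 of the 37 (94.6%, against 49.2% of all genes tested), with a median of -0.29 beside 0.0038 over all genes tested. Before adjustment, 4 of the 37 had a p under 0.05, all lower in MFN2 libraries, where 7.57% of all genes tested were lower at that p. That number was 10 without library 41 and 1 without library 47, where 11.3% and 5.01% of all genes tested were lower. Without library 43 the median was -0.18 and 32 of the 37 were below 0, with 0 called again. For 0 of the 37 were all MFN2 libraries below all WT libraries, where 1.07% of all genes tested had this pattern.

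The 4 genes with the lowest p were Il33, Qdpr, Gjb1 and Apod. Il33 (chromosome 19, 29925114 to 29960718 on GRCm38) encodes a nuclear cytokine released by damaged cells. It was at 21.5, 32.5, 29.4 and 42.9 CPM in WT libraries 44 to 47, at 18.1, 36.2 and 7.04 CPM in first-run MFN2 libraries 41 to 43, and at 10.2, 13.1, 11.7, 12.3 and 15.4 CPM in second-run MFN2 libraries 72 to 76. All MFN2 libraries but 42 lay below every WT library, and the 5 of the second run lay close together. The log2 fold change was -1.02 (SE 0.35, adjusted p = 0.278, edgeR). Without library 43 it was -0.91 (SE 0.33, adjusted p = 0.169, edgeR).

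Qdpr (chromosome 5, 45434021 to 45450236) was at 183, 285, 273 and 321 CPM in WT libraries 44 to 47, at 236, 277 and 73.6 CPM in MFN2 libraries 41 to 43, and at 116, 113, 109, 136.5 and 144 CPM in MFN2 libraries 72 to 76. Libraries 41 and 42 lay within the WT range, and the other 6 MFN2 libraries lay below it. The log2 fold change was -0.82 (SE 0.30, adjusted p = 0.279, edgeR), and -0.72 without library 43 (adjusted p = 0.195). Antisense gene Gm42413 overlaps 18.6% of the exon bases of Qdpr, with a mean of 22.2 counts per library against 4293 for Qdpr. Whether the counting used strand is not given in the sources used here.

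Gjb1 (chromosome X, 101376378 to 101385629) encodes connexin 32, which couples layers of myelin and is mutated in X-linked Charcot-Marie-Tooth disease. It was at 42.7, 61.2, 59.4 and 66.5 CPM in WT libraries 44 to 47, at 59.4, 34.9 and 12.4 CPM in MFN2 libraries 41 to 43, and at 28.1, 31.7, 30.2, 32.4 and 44.6 CPM in MFN2 libraries 72 to 76. Of the 8 MFN2 libraries 6 lay below every WT library, and 41 and 76 lay within the WT range. The log2 fold change was -0.75 (SE 0.29, adjusted p = 0.285, edgeR), and -0.62 without library 43 (adjusted p = 0.133). Apod, a lipocalin that carries lipids, was at 263, 382, 342 and 418 CPM in WT, at 382, 223.5 and 107 CPM in libraries 41 to 43, and at 191.5, 268, 191.6, 210.1 and 307 CPM in libraries 72 to 76. Its groups overlapped, with 5 of 8 MFN2 libraries below every WT library. The log2 fold change of Apod was -0.58 (SE 0.26, adjusted p = 0.316, edgeR), and -0.47 without library 43 (adjusted p = 0.206).

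Over the 8 structural genes (Mbp, Mobp, Mag, Mog, Cnp, Mal, Opalin and Ermn) the log2 fold change had a median of -0.22 and ran from -0.38 for Mbp to 0.14 for Mal. Without library 43 the median was -0.10, with Mal at 0.26. Mbp was at 8860, 12136, 9722 and 11570 CPM in WT libraries 44 to 47, at 13161, 8470 and 2754 CPM in MFN2 libraries 41 to 43, and at 6701, 8799, 6938, 7271 and 11078 CPM in MFN2 libraries 72 to 76. Library 41 held the highest Mbp level and library 43 the lowest, and the genotypes overlapped (log2 fold change -0.38, SE 0.29, adjusted p = 0.526, edgeR, and -0.25 without library 43, adjusted p = 0.440). For Mog, a glycoprotein of the outer myelin surface, the log2 fold change was -0.016 (SE 0.25, adjusted p = 0.980, edgeR), and without library 43 it turned to 0.11 (adjusted p = 0.626).

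Among genes of adhesion and junctions, Cldn11 was at 457, 491, 419 and 516 CPM in WT, at 567, 354 and 192 CPM in libraries 41 to 43, and at 376, 458, 415, 402 and 533 CPM in libraries 72 to 76. The MFN2 libraries lay on both sides of the WT range, with 5 below it and 2 above it. The adhesion genes (Cldn11, the tetraspanins Tspan2 and Cd9, and the hyaluronan link protein Hapln2 of the node) had log2 fold changes from -0.64 for Hapln2 to 0.11 for Tspan2, and from -0.49 to 0.21 for the same genes without library 43. Over the 2 channel genes they were -0.75 for Gjb1 and -0.24 for Gjc3, the latter -0.13 without library 43. The 6 enzymes had a median of -0.29, between -0.82 for Qdpr and -0.069 for Ugt8a. The median of the enzymes was -0.17 without library 43, and Ugt8a turned to 0.066.

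Sox10, the transcription factor that specifies the oligodendrocyte program, was at 103, 157, 116 and 139 CPM in WT, at 159.7, 112 and 51.7 CPM in libraries 41 to 43, and at 96.9, 114, 94.7, 93.5 and 129 CPM in libraries 72 to 76. Its log2 fold change was -0.27 and that of Myrf, which switches on myelin genes, -0.32, while Nkx6-2, a homeodomain factor, was at -0.58. The values were -0.17 for Sox10, -0.21 for Myrf and -0.48 for Nkx6-2 without library 43. Lpar1 was at 130.3, 166, 140.1 and 182 CPM in WT, at 173, 128 and 62.1 CPM in libraries 41 to 43, and at 124, 139, 129, 119 and 159.8 CPM in libraries 72 to 76. Library 43 was far below the rest, and 41 lay within the WT range of Lpar1. The 3 receptors had log2 fold changes from -0.34 for S1pr5 to -0.12 for Plxnb3, and without library 43 from -0.22 to -0.0071 for the same genes. The 5 secreted genes (Trf, Apod, Il33, the lysophospholipase D gene Enpp2 and the protease gene Klk6) had a median of -0.58, and of -0.47 without library 43.

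Gsn, which encodes an actin-severing protein, was the most abundant gene of the cytoskeleton and signalling group. It was at 659, 900.4, 702 and 785 CPM in WT, at 1044, 532 and 268 CPM in libraries 41 to 43, and at 677, 841, 609, 686 and 1191 CPM in libraries 72 to 76. Libraries 41 and 76 lay above every WT library, and 42, 43 and 74 below. The 6 genes of this group (Gsn, Bcas1, Plekhb1, Ppp1r14a, Anln and Tmem125) had log2 fold changes from -0.60 for Plekhb1 to -0.059 for Gsn. Without library 43 Plekhb1 was at -0.48, and Gsn turned to 0.066. Bcas1 marks oligodendrocytes that are starting to form myelin, and Anln encodes a protein that anchors septin filaments.

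Within the MFN2 group library 43 lay apart in the myelin genes too, as the heat map of the 37 genes shows. All 37 genes were at their lowest of the 12 libraries there, where library 43 was the lowest for 28.6% of all genes tested. Their level in library 43 had a median of 32.3% of the WT mean, from 9.45% for Klk6 to 71.0% for Cd9. The 37 genes summed to 7515 CPM in library 43, to 20572, 27054, 22212 and 26611 CPM in WT libraries 44 to 47, to 28878 and 19707 CPM in MFN2 libraries 41 and 42, and to 17543, 21654, 17959, 18692 and 26762 CPM in MFN2 libraries 72 to 76. Library 41 had the highest sum, libraries 73 and 76 lay within the WT range, and the other MFN2 libraries lay below it. In library 43 the other oligodendrocyte genes stood at 38.9% of the WT mean sum and the myelin lipid genes at 59.0%, while the precursor list stood at 115% and the endothelial list at 105%. Neuronal genes stood at 38.2%, astrocyte genes at 77.3% and microglial genes at 124% of the WT mean in that library. The part of the forebrain, Hox and Schwann cell genes in the low myelin genes of library 43 was not tested.

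**Figure D2:**
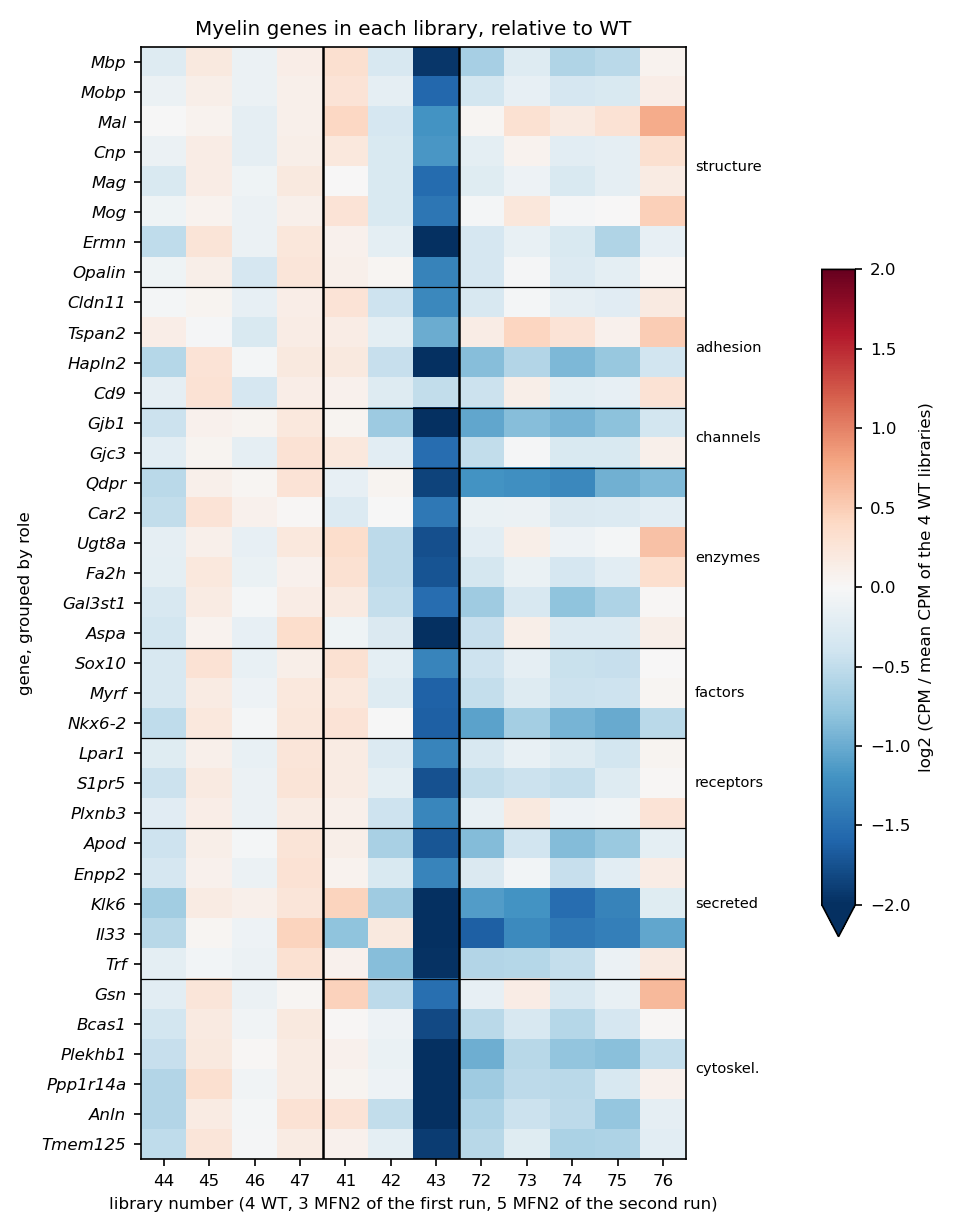
Each cell is the log2 ratio of a gene's CPM in a library to the mean CPM of the 4 WT libraries, with genes in rows by role and libraries in columns by group, and colours stopping at -2 and 2. Library 43 is blue for all 37 genes, while in libraries 72 to 76 Il33, Qdpr, Nkx6-2 and Plekhb1 are blue and Mal and Tspan2 are pale or red.

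The 5 MFN2 libraries of the second run were compared with the 4 WT libraries on their own. Here 8 of the 37 genes fell and 0 rose at an FDR of 0.05 (edgeR quasi-likelihood test, Benjamini-Hochberg adjustment over 15743 genes). The 8 were Il33, Qdpr, Nkx6-2, Gjb1, Plekhb1, Hapln2, Apod and Klk6, and their log2 fold changes ran from -1.34 to -0.59. The share that fell was 21.6% of the 37, where 12.7% of all genes tested fell and 23.8% were called in either direction. Of the 8, 4 had every second-run library below every WT library (Il33, Qdpr, Nkx6-2 and Plekhb1). These are 10.8% of the 37, close to the 10.3% of all genes tested with this pattern. The median over the 37 was -0.28 with 31 below 0 (83.8%, against 50.2% of all genes tested). The run of library numbers and the genotype cannot be told apart in this comparison.

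Il33 fell by 1.34 on the log2 scale (SE 0.18, adjusted p = 0.0012, edgeR), and its second-run values between 10.2 and 15.4 CPM all lay below the lowest WT value of 21.5 CPM. Qdpr fell by 1.10 (SE 0.15, adjusted p = 0.0015, edgeR), with a highest second-run value of 144 CPM against a lowest WT value of 183 CPM. Nkx6-2 (chromosome 7, 139579376 to 139582797) was at 35.8, 59.2, 49.4 and 59.7 CPM in WT, at 61.5, 50.7 and 16.5 CPM in libraries 41 to 43, and at 24.3, 32.0, 26.8, 25.4 and 35.0 CPM in libraries 72 to 76. The highest second-run library lay just under the lowest WT library, and libraries 41 and 42 lay with the other WT libraries. Its log2 fold change in the second run was -0.83 (SE 0.16, adjusted p = 0.0064, edgeR). Inpp5a on the opposite strand overlaps 12.9% of the exon bases of Nkx6-2, with a mean of 952 counts per library against 902 for Nkx6-2, so that part of the Nkx6-2 counts is uncertain if the counting did not use strand.

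Plekhb1, which encodes a membrane-binding protein with a pleckstrin homology domain, was at 394, 619.7, 549.7 and 609 CPM in WT, at 574, 495.5 and 131 CPM in libraries 41 to 43, and at 277, 369, 316, 303 and 392 CPM in libraries 72 to 76. Its log2 fold change was -0.72 (SE 0.14, adjusted p = 0.0076, edgeR), with library 76 just under WT library 44. For Gjb1 the fold change was -0.79 (SE 0.15, adjusted p = 0.0066, edgeR), with 4 of 5 second-run libraries below every WT library. Hapln2 fell from 118 ± 28.3 CPM (SD, n = 4) in WT to 73.4 ± 11.1 CPM (SD, n = 5), Apod from 351 ± 66.7 to 234 ± 51.7 CPM and Klk6 from 75 ± 19.3 to 37.3 ± 14.9 CPM, and for these 3 the groups overlapped. Il33, Qdpr, Nkx6-2, Gjb1 and Plekhb1 were called in all 9 fits that left out a library in turn, Hapln2 in 6, and Apod and Klk6 in 2 each.

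**Figure D3:**
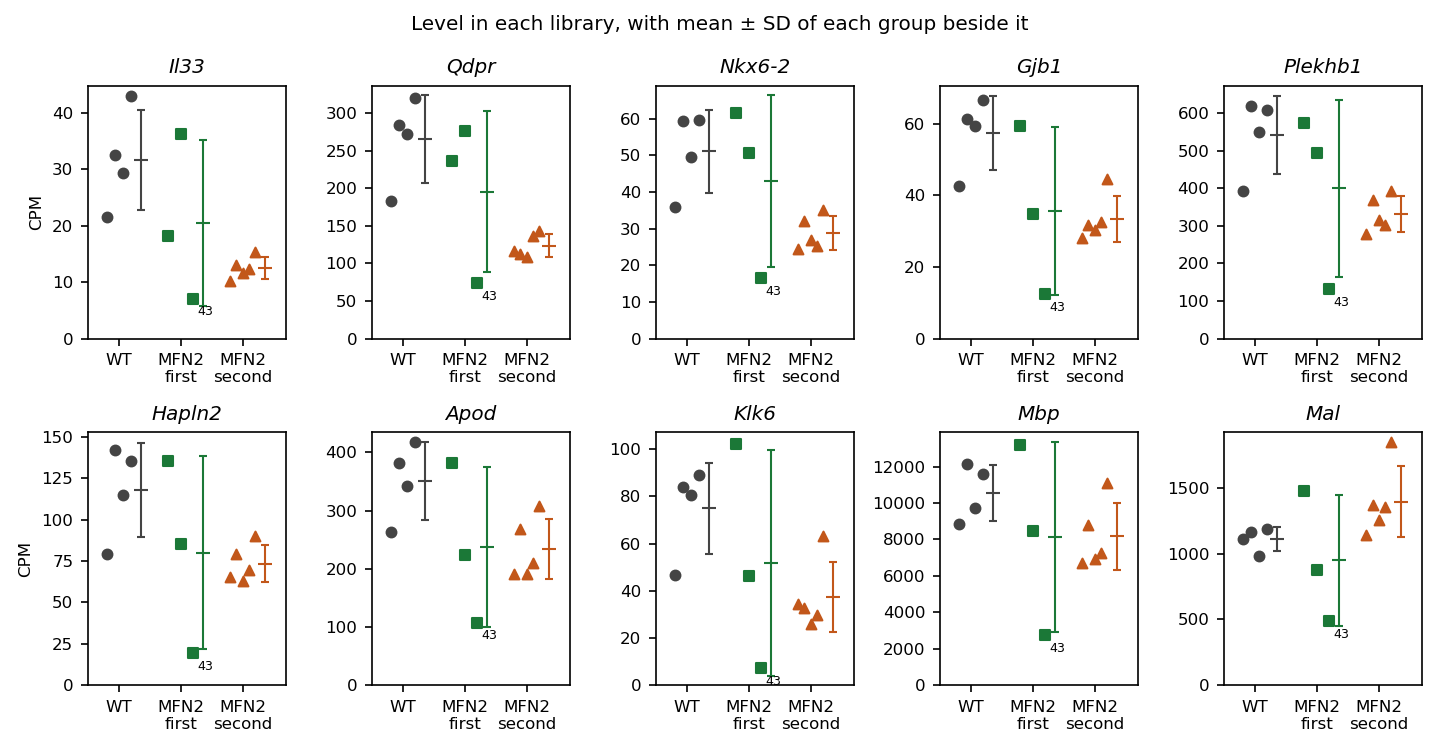
CPM of the 8 genes that fell in the second-run MFN2 libraries and of Mbp and Mal, with a point for each library and the mean ± SD of each group beside its points (WT n = 4, first-run MFN2 n = 3, second-run MFN2 n = 5). For Il33, Qdpr, Nkx6-2 and Plekhb1 all second-run points lie below all WT points, and library 43 is the lowest point in each panel.

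The most abundant myelin genes did not pass the FDR in the second run. The log2 fold change was -0.38 for Mbp (SE 0.16, adjusted p = 0.109, edgeR), with Mobp at -0.20 (adjusted p = 0.174), Cnp at -0.023 (adjusted p = 0.914) and Cldn11 at -0.11 (adjusted p = 0.439). For Mal the values were 1109, 1165, 985 and 1192 CPM in WT, 1482, 878 and 487 CPM in libraries 41 to 43, and 1146, 1374, 1255, 1355 and 1854 CPM in libraries 72 to 76. In the second run 4 of 5 libraries lay above every WT library, with a log2 fold change of 0.33 (SE 0.12, adjusted p = 0.0817, edgeR). Tspan2 was at 488, 438, 363 and 496.5 CPM in WT, at 492, 390.2 and 225 CPM in libraries 41 to 43, and at 493.3, 599, 542, 472 and 636 CPM in libraries 72 to 76 (log2 fold change 0.29 against WT, SE 0.11, adjusted p = 0.0771, edgeR). The log2 fold changes of the 29 uncalled genes ran from -0.49 for Anln to this 0.33 for Mal.

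The number of calls moved with the libraries and the scaling. It was 15 of the 37 without WT library 44 and 16 without MFN2 library 76, all lower, where 15.2% and 13.3% of all genes tested were lower. It was 5 without WT library 45, 46 or 47, all lower, where 8.16%, 8.89% and 10.5% of all genes tested were. When counts were scaled by library size and not by TMM, 7 fell and Mal and Tspan2 rose, while over all genes tested the calls moved from 1746 higher and 2000 lower to 2822 higher (17.9%) and 1345 lower (8.54%). DESeq2 gave 12 lower and the same 2 higher, where 13.7% of all genes tested were lower and 13.3% higher. A single fit of the 3 groups, in which all 12 libraries share an estimate of the spread, left Il33 and Qdpr, where 4.11% of all genes tested were lower.

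**Figure D4:**
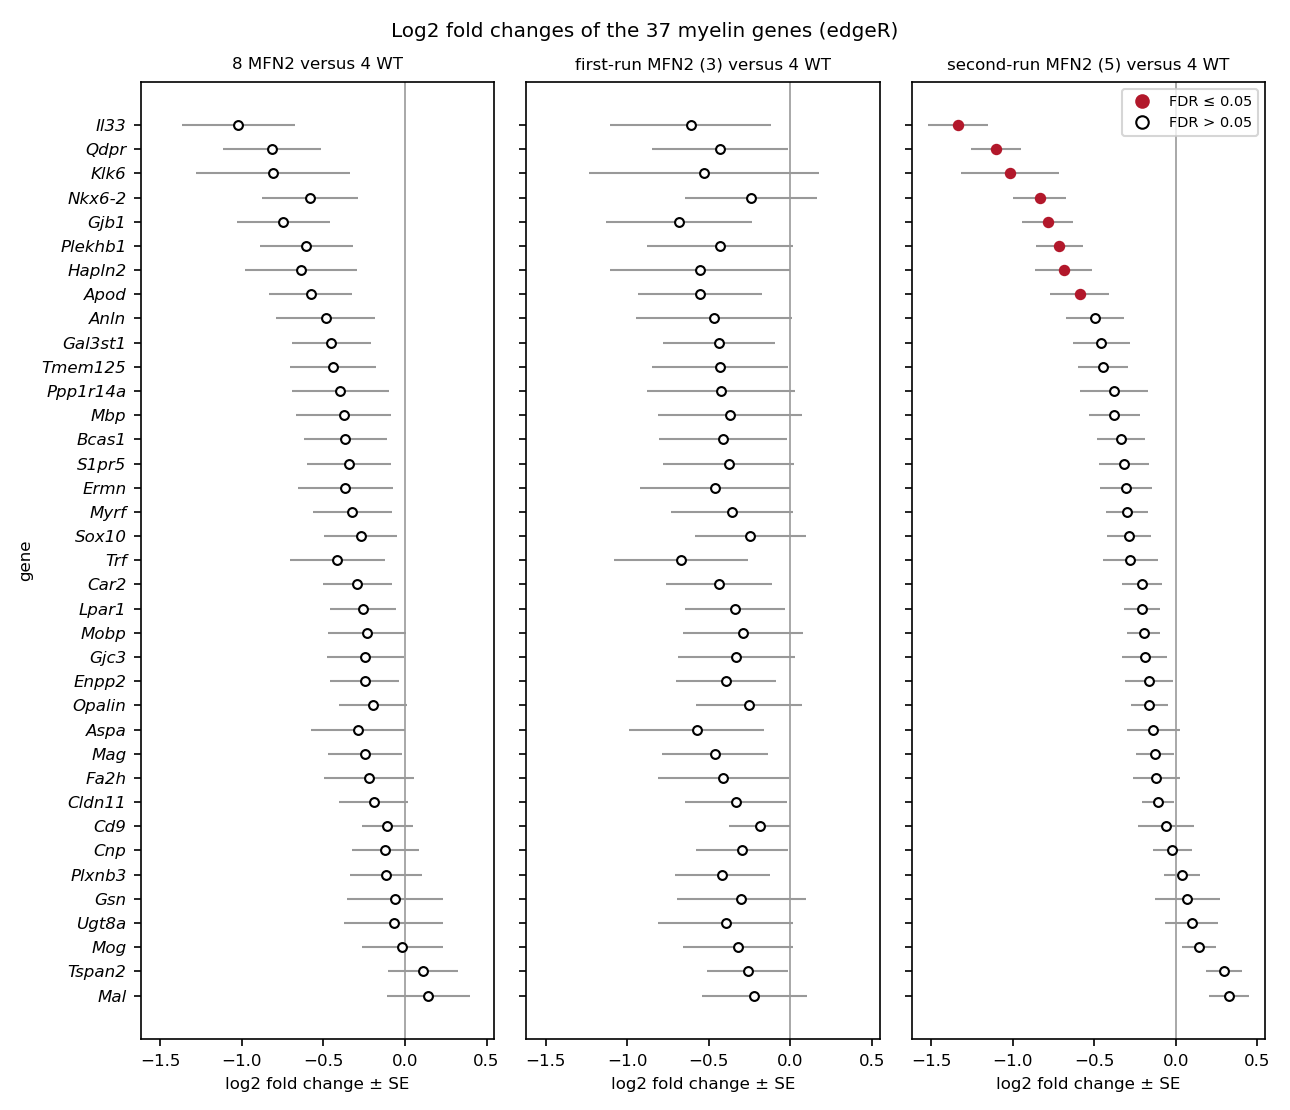
Log2 fold changes (points) with standard errors (bars) of the 37 genes for all 8 MFN2 libraries, the 3 first-run and the 5 second-run MFN2 libraries, each against the same 4 WT libraries, with genes in the order of the second run. Filled points have an FDR of 0.05 or less in edgeR and are seen for 8 genes, in the second-run panel only among the 3 drawn.

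The first-run MFN2 libraries 41 to 43 were compared with the same WT libraries, so that both comparisons share their controls. Of 15200 genes 1 was called (0.00658%) and 0 of the 37 (edgeR quasi-likelihood test). DESeq2 called 5 of the 15200 genes and 0 of the 37. In edgeR 0 of the 37 had an unadjusted p under 0.05, where 1.95% of all genes tested were lower at that p. Without library 41, 12 of the 37 were lower at that p, where 5.01% of all genes tested were. All 37 log2 fold changes were below 0, against 50.3% of all genes tested, with a median of -0.41. Without library 43 the median was -0.029, with 26 below 0 and 11 above, and without library 41 it was -0.76. The lowest p was that of Trf, at 13.8, 15.3, 14.5 and 19.6 CPM in WT libraries 44 to 47 and at 16.7, 8.78 and 4.04 CPM in MFN2 libraries 41 to 43 (log2 fold change -0.67, SE 0.41, adjusted p = 0.630, edgeR), and without library 43 its fold change was -0.30. In libraries 72 to 76 Trf was at 10.6, 10.6, 11.4, 14.6 and 18 CPM. Plxnb3 was at 76.05, 98.4, 82.4 and 100.4 CPM in WT, at 96.1, 66.7 and 36.2 CPM in libraries 41 to 43 and at 80.8, 103, 82.9, 84.8 and 108 CPM in libraries 72 to 76, with libraries 42 and 43 below every WT library. Side by side, the log2 fold change of Qdpr was -0.43 in the first run and -1.10 in the second, that of Il33 -0.61 and -1.34, that of Nkx6-2 -0.24 and -0.83, and that of Mbp -0.37 and -0.38. Without library 43 the first-run values were -0.040 for Qdpr and -0.20 for Il33, and those of Nkx6-2 and Mbp turned to 0.15 and 0.040.

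Within the MFN2 mice, the second run was compared with the first directly. Of 15633 genes 2.19% were called and 1.18% were lower, and 0 of the 37 were called (edgeR quasi-likelihood test). DESeq2 called 1795 of the 15633 genes and 0 of the 37. An unadjusted p under 0.05 in edgeR was found for 3840 of the 15633 genes and for 1 of the 37. The 1 gene of the 37 was Tspan2, with a log2 fold change of 0.56 (SE 0.22, adjusted p = 0.169, edgeR), or 0.30 without library 43 (adjusted p = 0.149). The median over the 37 was 0.094, with 13 below 0 (35.1%, against 52.3% of all genes tested). Without library 43 the comparison rested on libraries 41 and 42, and 4 of the 37 were lower in the second run, where 7.98% of all genes tested were. These were Qdpr (log2 fold change -1.06, SE 0.11, adjusted p = 0.00097, edgeR), Nkx6-2 (-0.98, SE 0.14, adjusted p = 0.0030), Plekhb1 (-0.70, SE 0.13, adjusted p = 0.0087) and Il33 (-1.13, SE 0.25, adjusted p = 0.0240). The median was then -0.26, and it was 0.49 without library 41 instead. The 4 genes are all among the 8 that fell in the second run against WT, and both comparisons use the same second-run libraries.

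Since libraries differed in their overall level of myelin genes, each gene was also expressed relative to the median of the 37 in its own library, a measure chosen after the data were seen and given as a description. On this scale the second-run libraries lay below all 7 first-run libraries, WT and MFN2 alike, for 3 genes, Il33, Qdpr and Nkx6-2 (8.11% of the 37, beside 1.09% of all genes tested on the same scale). For Qdpr the second run lay between -1.05 and -0.64 and the first between -0.31 and 0.36 (log2 relative level), and for Nkx6-2 between -0.69 and -0.48 and between -0.17 and 0.29. For Il33 the nearest values were -0.97 in the second run and -0.93 in library 41. They lay above all first-run libraries for 3 genes, Mal, Ugt8a and Mog (beside 0.351% of all genes tested). The shares are not like for like, since the scale is centred on the 37 genes themselves, whose median in library 43 was -1.60 (log2, against the WT mean), and nothing is read from them. For Mal the second run lay between 0.46 and 0.68 and the first between -0.11 and 0.41, and for Mog between 0.31 and 0.42 and between -0.11 and 0.23. Myrf stayed nearest to the median of the 37, between -0.11 and 0.057 in all 12 libraries. In library 43 Klk6 was at -1.75 and Cd9 at 1.13 on this scale, the widest spread of any library.

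**Figure D5:**
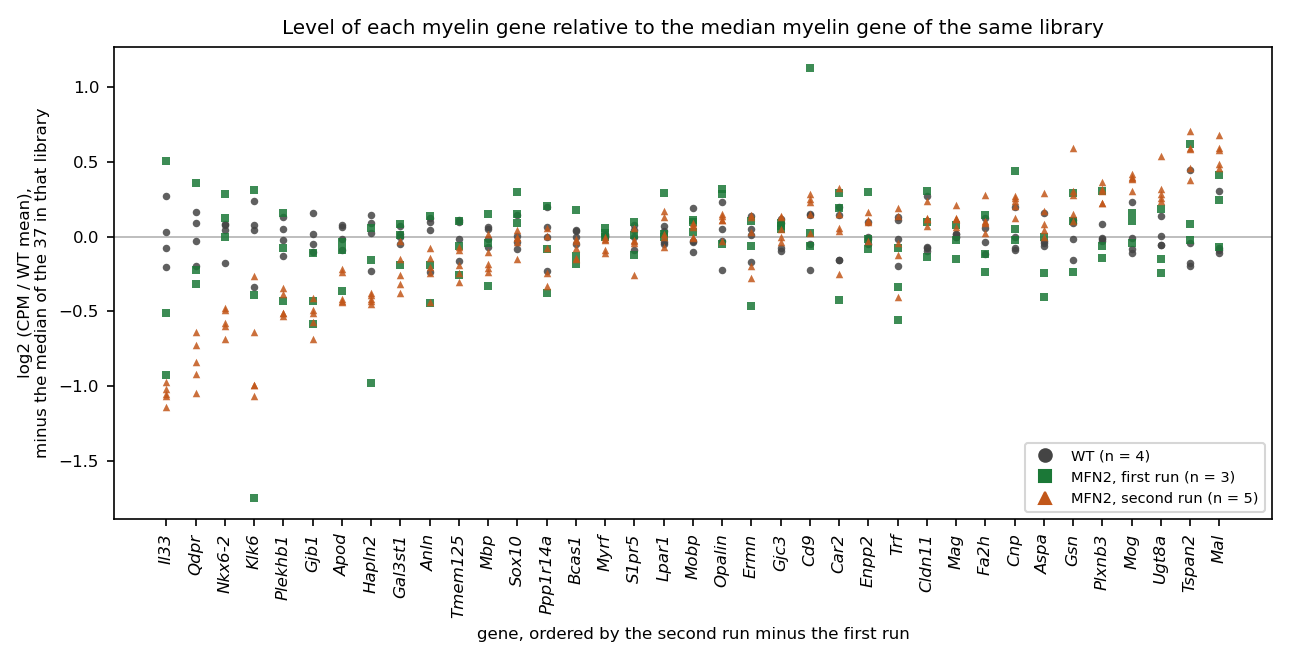
For each of the 37 genes, the log2 ratio of its CPM to the WT mean minus the median of that ratio over the 37 genes in the same library, with a point for each library coloured by group. Second-run MFN2 points lie below all others for Il33, Qdpr and Nkx6-2 and above all others for Mog, Ugt8a and Mal.

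Other genes of oligodendrocytes and myelin, from a list of 42 that does not hold the 37, gave 0 calls in the comparison of all MFN2 and WT libraries (edgeR), and 35 of the 42 were below 0 with a median log2 fold change of -0.36. Without library 43, 31 were below 0 and the median was -0.25. Over all 15743 genes tested in the second run against WT, 12.7% fell and 1746 genes rose. Of the 42, 18 fell and 3 rose. Among those that fell were Arsg, a sulfatase gene (log2 fold change -1.11, adjusted p = 0.00069, edgeR), and Ptgds, which makes prostaglandin D2 (-1.83, adjusted p = 0.0015). Zfp488, a transcription factor gene of oligodendrocytes, rose (0.70, adjusted p = 0.0023). Ptgds is also made by meninges and choroid plexus. Ptgds was at 117, 201, 210.3 and 155.5 CPM in WT, at 186, 160.1 and 144 CPM in libraries 41 to 43, and at 42.7, 68.9, 46.1, 35.4 and 47.7 CPM in libraries 72 to 76, with no overlap between the runs.

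Of 18 genes of precursors and premyelinating cells, 7 rose and 1 fell in the second run against WT (edgeR). Over all 15743 genes tested there, 1746 rose and 12.7% fell. Gpr17, a receptor of premyelinating cells, rose (log2 fold change 0.41, adjusted p = 0.0076), as did the kinase gene Fyn (0.26, adjusted p = 0.0087), and Xylt1 fell by 0.27 (adjusted p = 0.0054). For Pdgfra, the receptor that marks precursors, the log2 fold change was 0.15 (adjusted p = 0.0835). Genes of other cell types moved in the same comparison, where 23.8% of all genes tested were called in either direction. Of 10 microglial genes 8 fell and 0 rose, with Cx3cr1, the fractalkine receptor, at -0.51 (adjusted p = 0.0011, edgeR), and their sum was 178 ± 17.0 CPM (SD, n = 5) against 241 ± 28.3 CPM (SD, n = 4) in WT. Of 10 astrocyte genes 6 fell and 0 rose, with Gfap, the intermediate filament gene, at -1.08 (adjusted p = 0.0213, edgeR), and their sum was 6193 ± 599 CPM against 8096 ± 426 CPM. Of 11 neuronal genes 2 fell and 2 rose, and their sum was 13765 ± 714 CPM against 12466 ± 1803 CPM. Of 7 endothelial genes 1 fell (Cldn5), and of the 7 Schwann cell genes and 9 caudal Hox genes tested 0 were called. Of 8 forebrain genes tested 1 rose (Nrgn). The most abundant genes of the astrocyte, neuronal and endothelial lists were Slc1a2, Nefm and Flt1. The part of these cell types in the values of the 37 genes was not tested.

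Schwann cells make myelin with some of the same genes in nerve roots. Prx, the gene of periaxin, a protein of the Schwann cell membrane, was at 0.236 to 1.22 CPM in 10 of the libraries. The exceptions were library 43, with 35.5 CPM of Prx, and library 73, with 50.4 CPM. Without library 73 the second run gave 6 of the 37 genes lower and a median of -0.23, in place of 8 and -0.28, and 10.6% of all genes tested were lower, in place of 12.7%.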

How the data were processed

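Total RNA of the lumbar cord was made into libraries with a SMARTer kit and sequenced as paired-end reads. The authors trimmed the reads, aligned them with STAR to GRCm38.p6 and deposited raw, whole-number counts for each Ensembl gene. The counting tool, its strand setting and the annotation release are not given in the sources used here, so counts of overlapping genes are uncertain. Symbols, positions and exon lengths were taken from GENCODE M21, and promoter windows from RefSeq (GRCm38.p6).

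Groups came from the labels. Genes above 1 CPM in at least 3 libraries of a comparison were scaled by TMM and tested on the deposited counts by the quasi-likelihood test of edgeR 4.0.16 (legacy form, robust; R 4.3.3) with Benjamini-Hochberg adjustment over all genes tested and an FDR of 0.05. Standard errors were derived from the F statistic. CPM values use TMM-scaled library sizes and RPKM divides them by the union of exons. The alternatives were DESeq2 1.42.0, limma 3.58.1 (voom), library size alone, other filters, a covariate for the run of library numbers, a single fit of 3 groups, the longest transcript for RPKM and each library left out in turn. The tests were checked on simulated counts. Depth of 19359454 to 26738930 counts limits genes near 1 CPM. The 37 genes and the gene lists were chosen with earlier results of these data known. Genes whose value is given in each library are the most abundant per length in each role group and the 4 with the lowest p in each comparison. Plekhb1 and Ptgds are also given in each library and were chosen after their values were seen. Of the other lists the genes named are those with the lowest p, some of the most abundant and a few defining markers. Some items are not reported here.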

Additional observations from a re-analysis of the deposited data

Results flagged for a closer look

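In 8 of 96 groups of libraries examined (a gene or summed list, within 8 MFN2 or 4 WT libraries), the highest or lowest library lay apart from the others, measured as its gap to the nearest library over the full range of the group. Chance gives about 1 in 20 groups, or 4.8 of 96, and 6 of the 8 were in MFN2 library 43. The groups share the same libraries, so their flags are not independent and the 8 cannot be weighed against the 4.8. There the lowest values of Mag (0.597), Opalin (0.576), Aspa (0.571) and Car2 (0.712) lay apart, as did the highest summed level of forebrain genes (0.986) and the lowest of caudal Hox genes (0.857). For the other 33 myelin genes library 43 was also the lowest MFN2 library, with a gap that did not pass the limit. In MFN2 library 42 the highest value of Il33 lay apart (0.620), at 36.2 CPM. In MFN2 library 41 the highest summed level of astrocyte genes lay apart (0.605), at 9419 CPM. The cause was not tested for any of these.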

How the results depend on the processing

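No paired analysis was possible because the labels give no litter or other item that pairs mice of both genotypes. The myelin genes called between all MFN2 and WT libraries stayed at 0 under every alternative, and their median log2 fold change stayed below 0. Leaving out each library in turn, the number of all genes called was 0 to 19 for all MFN2 libraries against WT, 0 to 2 for the first run, 2350 to 4517 for the second run and 31 to 2375 for the second against the first run. The myelin genes called were then 5 to 16 in the second run and 0 to 4 in the second against the first run, whose median log2 fold change ran from -0.26 (without library 43) to 0.49. DESeq2 called 200 genes for all MFN2 libraries, 5 for the first run, 1795 for the second against the first run, and 4252 in the second run against WT with 14 myelin genes. A single fit of 3 groups called 0 genes in the first run, 1224 in the second with 2 myelin genes, and 1339 between the runs. With a covariate for the run of library numbers, the log2 fold changes of Mal and Tspan2 turned to -0.23 and -0.27. With a library left out, Gsn ran from -0.19 to 0.066 for all MFN2 libraries and from -0.11 to 0.16 in the second run, and Plxnb3 from -0.032 to 0.10 in the second run. The cause of the shifts with a library left out was not tested. Near 1 CPM the depth limits what can be seen.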

Other observations

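Genes of lipid synthesis and lysosomal lipid turnover, on which myelin depends, were followed as a list of 25. For all MFN2 libraries against WT 0 were called (edgeR quasi-likelihood test), with a median log2 fold change of -0.14 and 19 below 0, or of -0.094 and 16 below 0 without library 43. In the second run against WT 5 fell and 1 rose, where 12.7% of all 15743 genes tested fell and 1746 genes rose. The lysosomal genes Psap (log2 fold change -0.27, adjusted p = 0.0030, edgeR), Galc (-0.30, adjusted p = 0.0134), Asah1 (-0.26, adjusted p = 0.0134) and Arsa (-0.36, adjusted p = 0.0390) fell, as did Scd2, a fatty acid desaturase gene and the most abundant of the list (-0.46, adjusted p = 0.0079). Galc and Arsa encode the enzymes that break down galactosylceramide and sulfatide, the products of Ugt8a and Gal3st1. Idi1, of cholesterol synthesis, rose by 0.47 (adjusted p = 0.0204, edgeR), with 47.5, 47.5, 46.5, 56.0 and 72.2 CPM in libraries 72 to 76 and 36.5, 38.4, 37.9 and 42.05 CPM in WT libraries 44 to 47. In the second against the first run of MFN2 libraries 0 of the 25 were called, with a median of 0.16. Without library 43 that median turned to -0.060, and 1 gene (Psap) was lower in the second run, where 7.98% of all genes tested were. Galc, Asah1, Arsa and Idi1 were named after their values were seen.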
